A study of Mus musculus with 8 samples.

Results

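Ribosome-protected fragments pulled down with an antibody against SMN were compared with those pulled down with IgG, the control for unspecific capture, in 4 of the 8 libraries of the series. SMN, the survival motor neuron protein, is the core of a complex that assembles Sm proteins onto small nuclear RNAs, and its loss causes spinal muscular atrophy, a disease of motor neurons. SMN is also found with ribosomes and in axons, and the comparison asks which messages lie on the ribosomes that come down with it. A ribosome shields the stretch of message inside it from nuclease, so counts of such fragments follow both the amount of a message and how many ribosomes sit on it, and the 2 cannot be told apart here.

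The 3 SMN libraries and the 1 IgG library came from brains of control mice at postnatal day 5, with the genotype Smn+/-; SMN2tg/0 on an FVB background. These are phenotypically normal littermates of the severe 'Taiwanese' SMA model, in which the human transgene SMN2 is set against a null mouse gene. All 4 libraries therefore carry 1 disrupted Smn allele and the SMN2 transgene, and reads of transgene origin can be counted on mouse Smn1. Lysates were cleared of nuclei and mitochondria by centrifugation, digested with RNase I and spun to pellet ribosomes before the antibody and Protein G beads were added, in buffers with cycloheximide, which holds ribosomes in place. The labels call the SMN libraries biological replicates and do not say whether the IgG library shares a brain with any of them.

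Each gene was represented by a single row, its protein-coding transcript with most reads after scaling. This gave 21874 genes, of which 5517 passed the filter on low counts and were tested. Over 1 row per gene, the SMN libraries held 133295 to 237760 reads and the IgG library 206690. A single read equalled 4.80 to 8.65 CPM (counts relative to library size, scaled by TMM), so genes in the lower range rest on few reads. Of the tested genes, 1320 passed the filter through SMN libraries only, 533 of them through replicate 2 alone, and 348 through IgG only. SMN replicate 2 stood apart: over tested genes with at least 10 reads in the pair of libraries, the chi-square per gene between it and IgG was 4.38. For SMN replicates 1 and 3 against IgG it was 1.58 and 1.43. In log2 reads, replicate 3 correlated more closely with IgG (r = 0.88, across genes, which are not independent) than with replicate 1 (0.86) or replicate 2 (0.71). Replicate 3 and IgG were also the libraries with most reads, so depth and likeness cannot be told apart in r. The chi-square per gene between replicates 1 and 3 was 1.48. Brain messages were present on both sides, for example Syp, a synaptic vesicle protein, at 847 CPM in IgG and 912 to 1505 CPM in the SMN libraries.

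By edgeR's quasi-likelihood test with Benjamini-Hochberg adjustment, 0 genes (0% of those tested) were called higher in the SMN immunoprecipitate and 1 (0.0181%) was called lower. At an unadjusted p under 0.05 there were 99 genes above (1.79%) and 49 below (0.888%), and DESeq2 and limma-voom also called 0 genes higher. The genes below are therefore described by their values in each library, and only Gm21887 passed the test. Another reading sets each SMN library against the counting error of the IgG library alone. All 3 SMN libraries lay above IgG for 23.1% of the genes and below it for 22.5%. With a 2-fold difference in addition, the shares were 6.27% above and 3.48% below. All 3 lay above the upper end of IgG's exact 95% Poisson interval for 113 genes (2.05%) and below its lower end for 179 (3.24%). This rule was chosen after the data were seen, covers counting error and not the spread between pull-downs, and is not a test.

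Smn1 (ENSMUSG00000021645, row Smn1-001), the message of the antibody's own target, had 184, 112 and 163 CPM in SMN replicates 1 to 3 and 33.0 CPM in IgG. The SMN values came from 22, 13 and 34 reads and the IgG value from 6 reads, with a counting interval of 12.1 to 71.8 CPM. All 3 SMN libraries lay above that interval, and Smn1 passed the filter through SMN libraries only. The log2 fold change was 2.197 (SE 0.72, edgeR quasi-likelihood test, adjusted p = 0.92), and it was 2.34 with adjusted p = 0.0224 without SMN replicate 2. Unlike for most genes that stood high, replicate 2 was the lowest of the SMN libraries here. Its partners in the complex lay nearer to IgG or varied more. Strap had 193, 173 and 182 CPM against 182 in IgG, and Gemin5, which reads the small nuclear RNA, had 151, 17.3 and 62.4 CPM against 55.0. The other 6 members of the SMN complex list did not pass the filter.

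**Figure D1:**
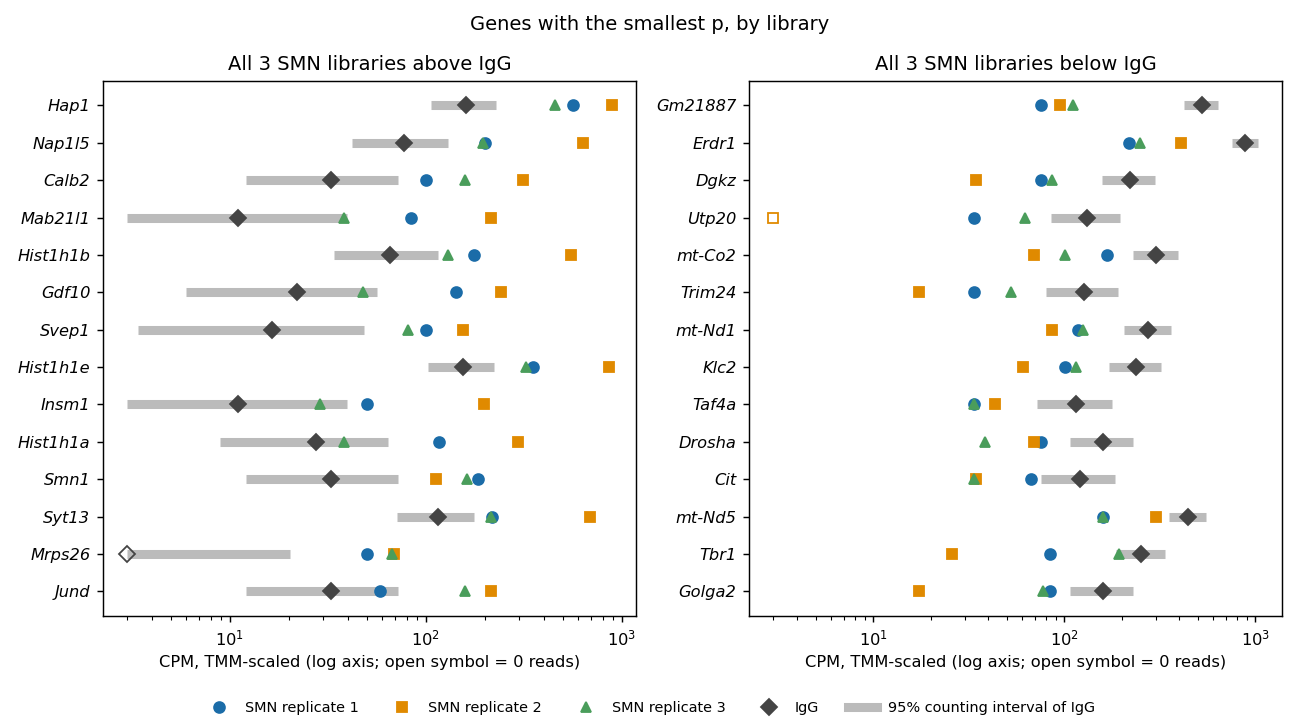
CPM (log axis) of the 15 genes with the smallest p among those above IgG in all 3 SMN libraries (left) and the 15 among those below it (right), without 1 gene on each side that is not reported here. Each symbol is a library, the grey bar is the 95% counting interval of the IgG value (cut at the left edge), and open symbols mark 0 reads. SMN replicate 2 is the highest library for most genes on the left, and Smn1 is an exception at 112 CPM. Genes on the left with few IgG reads, such as Smn1 and Insm1, passed the filter through SMN libraries only.

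Among the genes that lay above IgG in every SMN library were Hap1, Calb2 and Nap1l5. Hap1, a huntingtin-associated protein of vesicle transport that is abundant in the hypothalamus, had 561, 891 and 456 CPM against 159.5 in IgG (counting interval 107 to 229). With all SMN libraries Hap1 was not called (log2 fold change 1.98, edgeR quasi-likelihood test, adjusted p = 0.501). Its log2 fold change was 2.05 without SMN replicate 1, 1.64 without replicate 2 and 2.16 without replicate 3. Among these fits, only that without replicate 2 called it higher. Calb2, the calcium buffer calretinin, had 100.5, 311 and 158 CPM against 33.0. Nap1l5, an imprinted gene expressed from the paternal copy, had 201, 632 and 197 CPM against 77.0. These genes were named for lying above IgG in all 3 SMN libraries, as 23.1% of all tested genes did. Replicate 2 was the highest for each.

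Transcription factors and secreted proteins of developing neurons and glia followed. Mab21l1, a regulator of eye and midbrain development, had 83.7, 216 and 38.4 CPM against 11.003, and Insm1, a zinc finger factor of neurons leaving the cell cycle, had 50.2, 199 and 28.8 CPM against 11.003. In IgG each rests on 2 reads, and replicate 3 lay within the IgG counting interval for both. Gdf10, a ligand of the TGF-beta family made by glia, had 142, 242 and 48.0 CPM against 22.005, also with replicate 3 inside the interval. Svep1, a large secreted adhesion protein, had 100.5, 156 and 81.6 CPM against 16.5, and all 3 lay above the interval, which ends at 48.2 CPM. Jund, an AP-1 transcription factor, had 58.6, 216 and 158 CPM against 33.0, with replicate 1 inside the interval. Among the named genes on this side, Calb2, Mab21l1, Gdf10, Svep1, Jund, Mrps26 and Hist1h1a passed the filter through SMN libraries only. Insm1 passed it through SMN replicate 2 alone. The side on which such genes stand is thus partly set by the filter.

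The rest of the upper end held vesicle, chromatin and mitochondrial ribosome genes. Syt13, an atypical synaptotagmin, had 218, 692 and 216 CPM against 115.5 in IgG. Linker histone messages are described with their family below. Mrps26, a subunit of the mitochondrial ribosome, had 50.2, 69.2 and 67.2 CPM and no IgG read. Set against a floor of 3 reads in the IgG library, its pooled SMN reads were at least 3.83-fold higher. The SMN values come from 6, 8 and 14 reads, and 4 tested genes in all had no IgG read.

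On the other side, the predicted gene Gm21887 had 75.4, 95.2 and 110.4 CPM against 523 CPM in IgG (log2 fold change -2.45, edgeR quasi-likelihood test, adjusted p = 0.00221). Its row has a coding length of 531 nucleotides and no UTR in the table. Erdr1, whose name stands for erythroid differentiation regulator, had 218, 407 and 250 CPM against 886, below the IgG interval in all 3 libraries. Whether reads on these 2 genes come from repeated sequence was not tested. DESeq2 (log2 fold change -2.46), a minimum count of 50 (-2.53) and counts summed per gene (-1.98) each ended this call. It also ended without SMN replicate 1 (log2 fold change -2.34) and without replicate 3 (-2.62).

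Genes of varied function made up the rest of the lower end. Drosha, the nuclease that starts microRNA maturation, had 75.4, 69.2 and 38.4 CPM against 159.5 in IgG. Utp20, a factor of small ribosomal subunit assembly, had 33.5 and 62.4 CPM in replicates 1 and 3, no read in replicate 2 and 132 CPM in IgG. Taf4a, a subunit of the general transcription factor TFIID, had 33.5, 43.3 and 33.6 CPM against 115.5. Trim24, a chromatin reader, had 33.5, 17.3 and 52.8 CPM against 126.5. In each of these the SMN values lay below the IgG counting interval, as for 3.24% of all tested genes. Utp20, Taf4a and Trim24 passed the filter through IgG only.

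Dgkz, a kinase that turns diacylglycerol into phosphatidic acid, had 75.4, 34.6 and 86.4 CPM against 220.1 in IgG. Klc2, a light chain of the axonal motor kinesin, had 100.5, 60.6 and 115.2 CPM against 237, and Cit, citron kinase of dividing cells, had 67.0, 34.6 and 33.6 CPM against 121. Golga2, a Golgi matrix protein, had 83.7, 17.3 and 76.8 CPM against 159.5. They were named for lying below IgG in all 3 SMN libraries, as 22.5% of all tested genes did. None passed the test (edgeR quasi-likelihood test, adjusted p of 0.921 for Dgkz and 0.999 for the other 3). Cit passed the filter through IgG only.

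Messages of mitochondrial genes, which mitochondrial ribosomes translate, lay below IgG in all 3 SMN libraries. Summed over the 13 protein genes, they stood at 1976, 2059 and 1733 CPM in SMN replicates 1 to 3 and at 3411 CPM in IgG (counting interval 3148 to 3690). The SMN libraries thus held 0.58, 0.60 and 0.51 of the IgG level, and replicate 2 was no exception here. mt-Co2, a subunit of cytochrome oxidase, had 167, 69.2 and 100.8 CPM against 303. mt-Nd1 and mt-Nd5, subunits of complex I, had 117, 86.5 and 125 CPM against 275, and 159, 303 and 158 CPM against 446. Of 11 tested members, 10 lay below IgG in all 3 SMN libraries (22.5% of all tested genes did) and 9 of them below its counting interval (3.24% of all), while 0 were called. The exception, mt-Nd6, is the one protein gene on the light strand of the mitochondrial genome and had 167, 199 and 120.01 CPM against 121. mt-Nd5 was called lower without SMN replicate 2 (log2 fold change -1.50, edgeR quasi-likelihood test, adjusted p = 0.00546).

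Nuclear genes of the same respiratory complexes did not share this. Summed over 86 genes they stood at 14544, 16681 and 15025 CPM in the SMN libraries against 13423 in IgG, and 54 of 76 tested members had a positive log2 fold change. Their median was 0.24, beside 0.032 over all tested genes. Ribosomal RNA of mitochondria took 1.41%, 3.59% and 1.51% of the reads on all transcripts in the SMN libraries and 1.71% in IgG. SMN replicates 1 and 3 thus lay below IgG and replicate 2 above it. These are shares of all reads, a different scale from the CPM of coding rows. Centrifugation had removed mitochondria from the lysates, per the labels, and how much was left in each pull-down was not tested.

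The gene lists were compared by the summed CPM of all their members in the table, tested or not, since a gene that is low in IgG enters the test only through the SMN libraries. Of 45 lists with 5 or more members, 13 lay above the IgG counting interval in all 3 SMN libraries and 3 below it. The lists were chosen with earlier results of these data known. The interval covers counting error and not the spread between pull-downs, so it is narrow for large sums. No such share was computed for other sets of genes, and these counts are not a test. SMN replicate 2 was the library farthest from IgG in 32 of the 45, replicate 1 in 8 and replicate 3 in 5. No list member was called by the test.

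**Figure D2:**
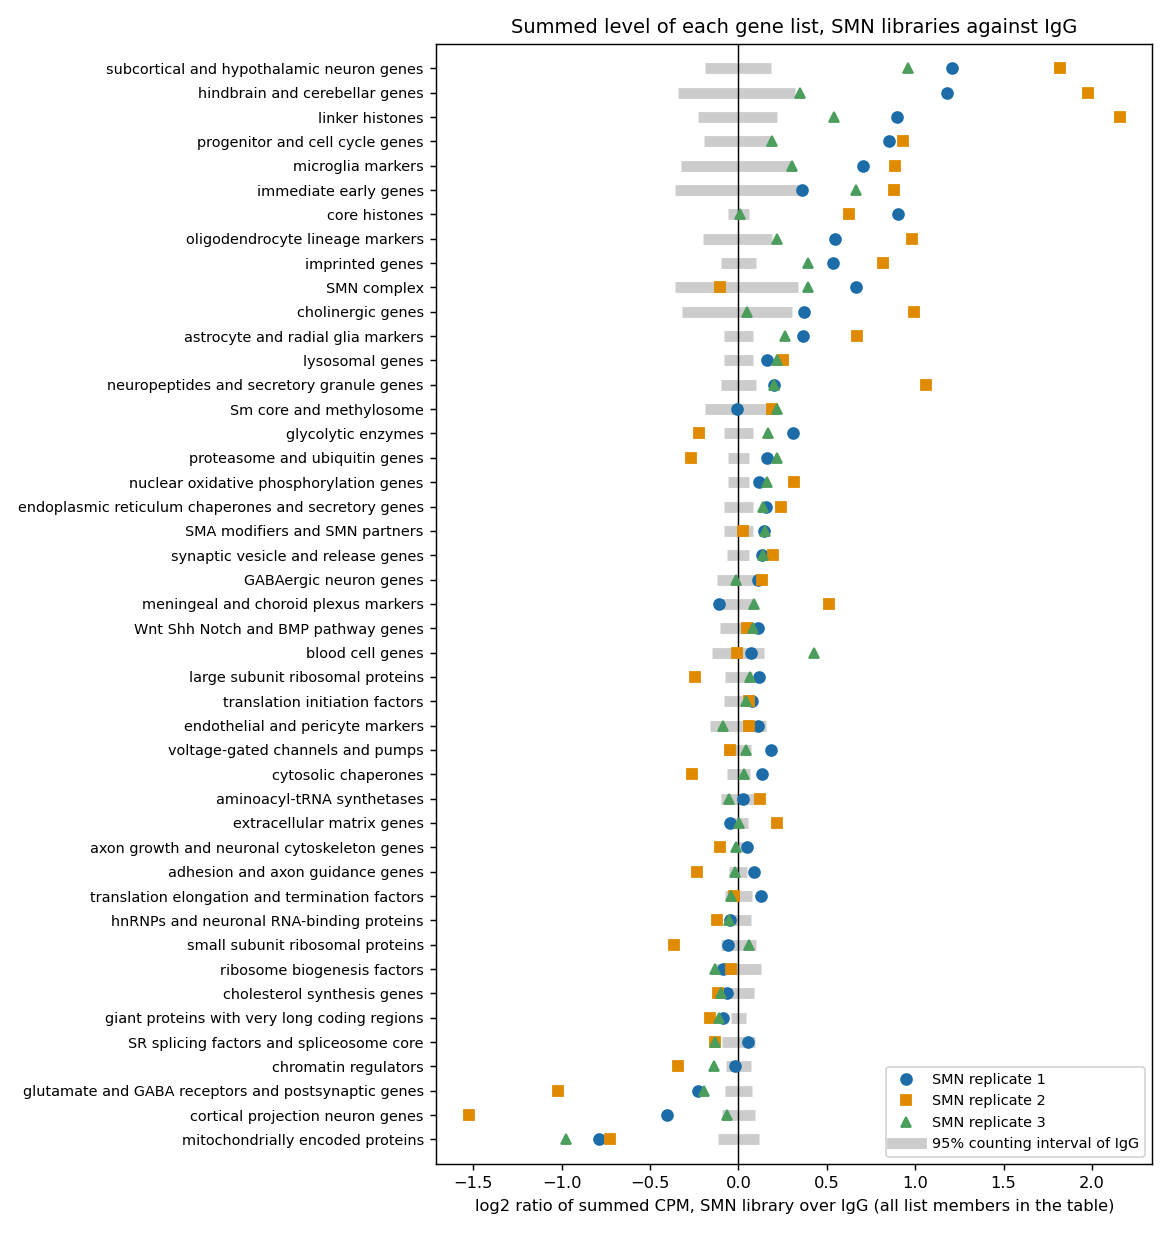
Log2 ratio of the summed CPM of each gene list in each SMN library over IgG, for the 45 lists, with the counting interval of IgG as a grey bar around 0. Subcortical, hindbrain and linker histone lists stand to the right with replicate 2 farthest out, and mitochondrially encoded genes stand to the left in all 3 libraries.

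Genes of neurons below the cortex stood above IgG in all 3 SMN libraries. The 37 subcortical and hypothalamic genes summed to 2972, 4534 and 2501 CPM in the SMN libraries and to 1287 CPM in IgG (counting interval 1128 to 1463), a ratio of 2.31, 3.52 and 1.94. In whole brain, more cells of a type and more message on ribosomes per cell cannot be told apart. Of the 37 genes, 10 were tested, 5 of which had passed the filter through SMN libraries only. Among those that IgG also carried past the filter, Ahi1, a ciliary protein that binds Hap1, had 427, 960 and 360.03 CPM against 226, and Slc17a6, the vesicular glutamate transporter of subcortical neurons, had 494, 701 and 254 CPM against 198. Baiap3, a protein of dense-core vesicle release, had 109, 77.9 and 91.2 CPM against 16.5, and its SMN values were close to each other. Avp, the peptide hormone vasopressin, rested on 1 IgG read, with 25.1, 121 and 52.8 CPM in the SMN libraries.

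Hindbrain and cerebellar genes differed more between the SMN libraries. The 39 genes summed to 971, 1687 and 547 CPM against 429 in IgG, so replicate 3 reached 1.28 of the IgG level and replicate 2 reached 3.93. Zic1, a zinc finger factor of cerebellar granule neurons, had 301, 372 and 139 CPM against 82.5, and its relative Zic2 had 184, 372 and 81.6 CPM against 66.0. Pcp4, a calmodulin-binding protein of Purkinje cells, went the other way with 33.5, 51.9 and 52.8 CPM against 99.0. Only 7 of these genes were tested. Of them, 4 had passed the filter through SMN libraries only and 1, Pcp4, through IgG only, so the side of each is partly set by the filter.

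**Figure D3:**
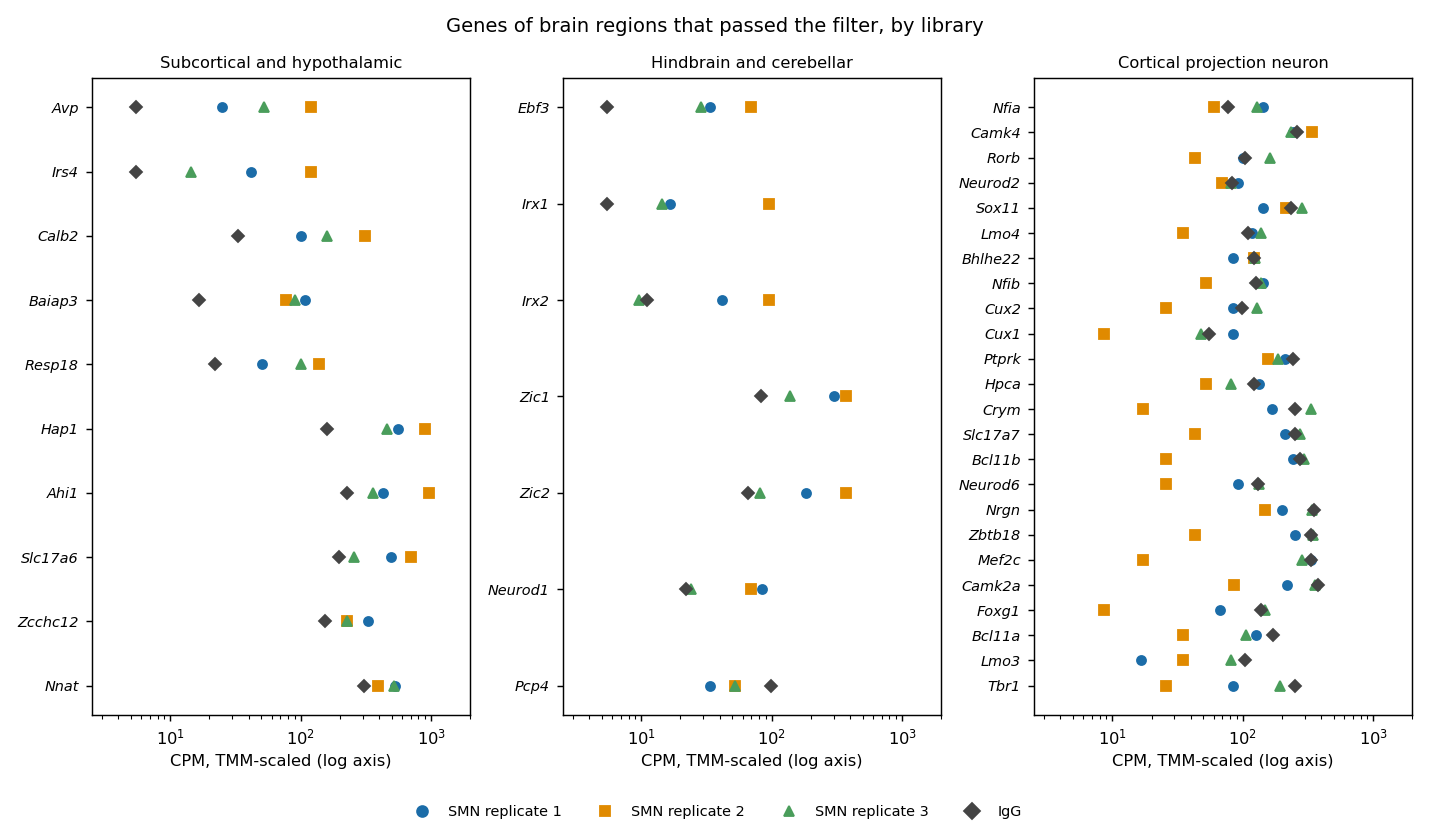
CPM (log axis) by library for the reported members of 3 regional lists that passed the filter. Subcortical genes lie above IgG in all 3 SMN libraries, whereas for most cortical genes replicate 2 is the lowest library and replicate 3 lies on either side of IgG.

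Cortical projection neuron genes showed the reverse, mainly in 1 library. Summed over 31 genes they stood at 3860, 1774 and 4882 CPM against 5099.7 in IgG (counting interval 4777 to 5439), which is 0.76, 0.35 and 0.96 of the IgG level. Tbr1, a factor of deep-layer neurons, had 83.7, 26.0 and 192 CPM against 253. Lmo3, a LIM-domain cofactor, had 16.7, 34.6 and 81.6 CPM against 104.5. The median log2 fold change of the 25 tested members was -0.47, and -0.15 without SMN replicate 2. The level in replicate 3 lay within the counting interval of IgG, so the difference was not seen in every SMN library. Whether the brains or pull-downs differed in the regions they held was not tested.

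Receptors of the synapse lay lower in every SMN library. The 34 genes of glutamate and GABA receptors and the postsynaptic scaffold summed to 6447, 3720.2 and 6591 CPM against 7553 in IgG (counting interval 7159 to 7964), and 19 of 32 tested members were below IgG in all 3 libraries, beside 22.5% of all tested genes. Grin2b, the NMDA receptor subunit of young neurons, had 452, 173 and 523 CPM against 688, and Gabra2, a GABA receptor subunit, had 159, 77.9 and 81.6 CPM against 209. The 39 synaptic vesicle and release genes summed to 12819, 13367 and 12894 CPM against 11690.2, above its counting interval in all 3. Sv2a, a vesicle protein, had 728, 1237 and 672 CPM against 567, and Nsf, the ATPase that recycles fusion complexes, had 544, 484 and 595 CPM against 385. Counted by gene, 9 of 35 tested members lay above IgG in all 3 libraries (25.7%, beside 23.1% of all tested genes) and 5 below, and the median log2 ratio was -0.0090, -0.050 and 0.15 in SMN replicates 1 to 3.

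Genes of dense-core granules stood above IgG. The 24 neuropeptide and granule genes summed to 5426, 9846 and 5429 CPM against 4715 in IgG. Chga, a chromogranin that packs the granule, had 251, 649 and 278 CPM against 148.5, and Pcsk1n, an inhibitor of the prohormone convertase, had 645, 1704 and 653 CPM against 517. Scg2, a secretogranin, had 276, 614 and 336 CPM against 220.1. Peptides themselves did not all follow: Npy had 16.7, 17.3 and 67.2 CPM against 77.0. GABAergic neuron genes summed to 3357, 3417 and 3087 CPM against 3114 and lay within the IgG counting interval in replicates 1 and 3.

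Imprinted genes, which are expressed from 1 parental copy and are abundant in the hypothalamus, also lay above IgG. The 35 genes summed to 6689.8, 8159 and 6073 CPM against 4621 in IgG (counting interval 4314 to 4944). Peg3, a paternally expressed zinc finger gene, had 787, 908 and 586 CPM against 325, and all 3 lay above its counting interval. Zdbf2, another paternally expressed gene, had 109, 277 and 81.6 CPM against 49.5. Of 25 tested members, 10 lay above IgG in all 3 libraries, beside 23.1% of all tested genes, and 1, Copg2, lay below. The median log2 fold change was 0.52, or 0.32 without SMN replicate 2. However, 6 of the 25 had passed the filter through SMN libraries only. Over the 19 that passed through both groups, 6 lay above IgG in all 3 libraries and the median was 0.34. Nap1l5 is a member of this list and Nnat is shared with the subcortical list, so the lists are not separate evidence.

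Histone messages, which lack a poly(A) tail when made for replication, stood above IgG in part of the libraries. The 9 linker histones summed to 1691, 4049 and 1320.1 CPM against 908 in IgG. Hist1h1b had 176, 554 and 129.6 CPM against 66.0, Hist1h1e had 352, 857 and 326 CPM against 154, and Hist1h1a had 117, 294 and 38.4 CPM against 27.5. The replication-independent linker genes H1f0 and H1fx had 142, 251 and 86.4 CPM against 110.03, and 126, 259.6 and 101 CPM against 121, so their SMN and IgG values overlapped. The 72 core histone genes summed to 22849, 18887 and 12332 CPM against 12246, and replicate 3 was at the IgG level. Near-identical histone copies can hold the same reads, so their counts are not independent.

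Lists of dividing cells and of astrocytes and oligodendrocytes lay above IgG, with replicate 3 nearest to it in the sums. The 35 progenitor and cell cycle genes summed to 2286, 2414 and 1445 CPM against 1265 in IgG, and 12 of 17 tested members had passed the filter through SMN libraries only. Kif11, a mitotic kinesin, had 67.0, 95.2 and 52.8 CPM against 16.5. The 27 astrocyte and radial glia markers summed to 8389.5, 10356 and 7805 CPM against 6508. Gja1, the gap junction protein connexin 43 of astrocytes, had 276, 588 and 331 CPM against 159.5, and Apoe, the lipid carrier, had 1063, 1142 and 898 CPM against 599.6. The 18 oligodendrocyte lineage markers summed to 1749.9, 2371 and 1397 CPM against 1199, among them Gpr17, a receptor of immature oligodendrocytes, with 117, 277 and 129.6 CPM against 77.0. The 16 microglia markers summed to 762, 865 and 576 CPM against 468, with replicate 3 inside the IgG interval, while the 20 endothelial and pericyte markers, at 1951, 1877 and 1699 CPM against 1804, lay within it in all 3 libraries. Meningeal and choroid plexus markers stood at 5409, 8314 and 6197 CPM against 5837, and the 14 blood cell genes in the table at 2169, 2050.5 and 2775 against 2063. The part of cell composition in the values of the other groups was not tested.

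Lysosomal and secretory pathway genes lay slightly above IgG in every SMN library. The 30 lysosomal genes summed to 7226, 7691 and 7527 CPM against 6459 in IgG (counting interval 6094 to 6839), and the 32 endoplasmic reticulum genes to 7175, 7614 and 7071 CPM against 6431. The spread between the SMN libraries was small for both, and replicate 2 stood near the others.

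Lists of the translation machinery lay on both sides of IgG, by library. The 51 large subunit ribosomal protein genes summed to 8381, 6523 and 8103 CPM against 7740.3, and the 33 small subunit genes to 4446, 3599 and 4829 against 4638. Replicate 2 was the lowest library for both and lay below the IgG counting interval, at 0.84 and 0.78 of the IgG level, and replicate 1 lay above the interval for the large subunit. The 55 initiation factor genes summed to 7644, 7527 and 7441 CPM against 7234, 18 elongation and termination factor genes to 8741, 7882 and 7767 against 8004, and 39 aminoacyl-tRNA synthetases to 4873, 5217 and 4608 against 4786. Replicate 1 lay above the IgG interval for the initiation and elongation factors and replicate 2 for the synthetases. Eif3k, a subunit of initiation factor 3, had 109, 216 and 101 CPM against 55.0. Eef1a1, the main elongation factor, had 2654, 1159 and 2434 CPM against 2498. Ribosome biogenesis factors had 2629, 2708 and 2549 CPM against 2789, inside the IgG counting interval in replicates 1 and 2.

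Lists tied to SMN and to motor neurons varied by library. The 26 SMA modifiers and SMN partners summed to 7435, 6852 and 7459.9 CPM against 6734, with replicates 1 and 3 above the IgG counting interval, which ends at 7122 CPM. Counted by gene, 8 of 18 tested members had a positive log2 fold change, and the median was -0.086, beside 0.032 over all tested genes. In all 3 libraries, 7 members lay above IgG (38.9%, beside 23.1% of all tested genes) and 2 below. Uchl1, a ubiquitin hydrolase of neurons, had 1256, 1514 and 1431 CPM against 990.2, above the counting interval in all 3 libraries. Agrn, which organises the neuromuscular junction, had 745, 528 and 691 CPM against 523, and Uba1, the ubiquitin-activating enzyme, had 1448, 787 and 1282 CPM against 1419. The 15 Sm core and methylosome genes summed to 1273, 1462 and 1488 CPM against 1282. The 20 cholinergic genes summed to 619.6, 952 and 494 CPM against 479, with replicates 1 and 2 above the IgG interval, which ends at 590.4 CPM. Ache, the acetylcholinesterase of cholinergic synapses, had 251, 311 and 216 CPM against 182, with 0.50 as its log2 fold change (edgeR quasi-likelihood test, adjusted p = 0.999).

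Cytoskeletal genes split by member. The 46 axon growth and cytoskeleton genes summed to 118064, 105828 and 112892 CPM against 113965 in IgG. Nefh, the heavy neurofilament subunit of large axons, had 151, 459 and 163 CPM against 77.0, and Nefl, the light subunit, had 1055, 1782 and 849.7 CPM against 660.2. Dcx, the microtubule protein of migrating neurons, had 209, 112 and 403 CPM against 484. Marcks, an actin regulator at the membrane, had 1172, 3089 and 1239 CPM against 853. Giant proteins summed to 23410.3, 22252 and 23037 CPM against 24904 and lay below the IgG counting interval in all 3 libraries.

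Tested genes were also placed in 5 classes of equal size by the length of their coding region. In the class with the shortest regions (78 to 837 nucleotides), 29.8% lay above IgG in all 3 SMN libraries and 15.7% below. In the class with the longest (3153 to 22062 nucleotides), 15.6% lay above and 29.3% below. The classes between them had 27.8%, 23.8% and 18.6% above and 20.04%, 21.5% and 25.8% below, in order of length. By library the median log2 ratio to IgG went from 0.34 in the shortest to -0.25 in the longest class in SMN replicate 2 and from 0.13 to -0.12 in replicate 3. In replicate 1 it was -0.0016 and 0.015, so no such difference was seen there. The median log2 fold change went from 0.20 to -0.087 with all SMN libraries and from 0.11 to -0.075 without replicate 2. The shortest and longest classes of 5′ UTR length had medians of 0.10 and -0.0070, and those of 3′ UTR length 0.096 and -0.038. These are descriptions of 1 set of 4 libraries, and the class with the longest coding regions also had more counts, with a median of 123 CPM per gene against 94.4 in the shortest.

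**Figure D4:**
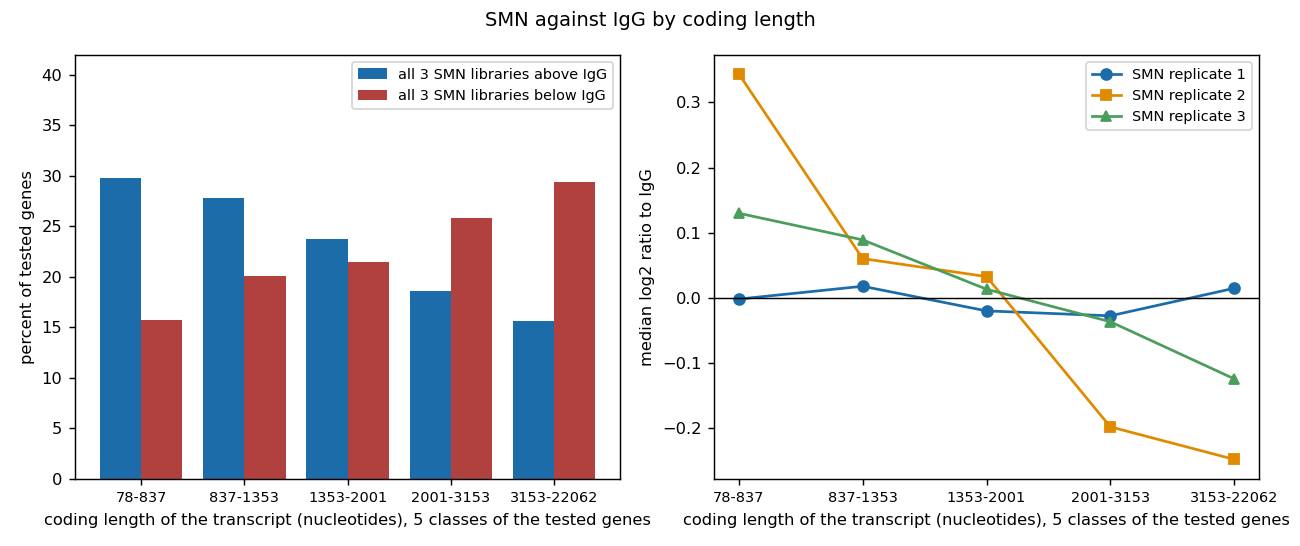
Tested genes in 5 classes of coding length. Left, percent of genes with all 3 SMN libraries above (blue) or below (red) IgG, from 29.8% and 15.7% in the shortest class to 15.6% and 29.3% in the longest. Right, median log2 ratio to IgG by SMN library, which falls with length in replicates 2 and 3 and stays near 0 in replicate 1.

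Isoforms were also tested as separate rows, 10833 protein-coding transcripts of 5822 gene symbols. No isoform was called higher (0%) or lower (0%) by edgeR's quasi-likelihood test, with 150 above (1.38%) and 44 below (0.406%) at an unadjusted p under 0.05. DESeq2 called 0 in either direction and limma-voom called 0 higher and 4 lower, which were isoforms of Erdr1 and Gm21887. All 3 SMN libraries lay above IgG for 22.2% of isoforms and below it for 22.6%. The sources used here do not give how reads that match several isoforms were counted. Pairs of isoforms with equal coding length and at least 20 reads in a library were compared. Of 735 such pairs in IgG, 11.6% held equal counts, a share that does not by itself show shared reads. The squared difference of the 2 counts over their sum had a median of 0.15 in IgG. In SMN replicates 1 to 3 the median was 0.13, 0.43 and 0.17, so the counts of a pair were least alike in replicate 2. How far isoforms of a gene share reads was not settled, and they are not taken as independent.

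Both tested isoforms of Smn1 stood above IgG. In CPM over coding isoforms, Smn1-001, with a coding length of 867 nucleotides, had 96.6, 80.2 and 86.4 against 17.4 in IgG. The shorter Smn1-008, with 485 nucleotides of coding sequence and no UTR in the table, had 39.5, 36.99 and 45.7 against 8.70, from 3 reads. On this scale the SMN libraries differed little from each other for both. The 5 tested isoforms of Hap1 had log2 fold changes of 1.18 to 2.18, with Hap1-005, the longest, at 294, 635 and 241 CPM against 84.1. Without SMN replicate 2, 3 isoforms were called higher (Smn1-001, Hap1-005 and Hap1-001) and 11 lower, among them 4 of Erdr1, 3 of Gm21887, mt-Nd5-201, mt-Cytb-201 and Mef2c-023.

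**Figure D5:**
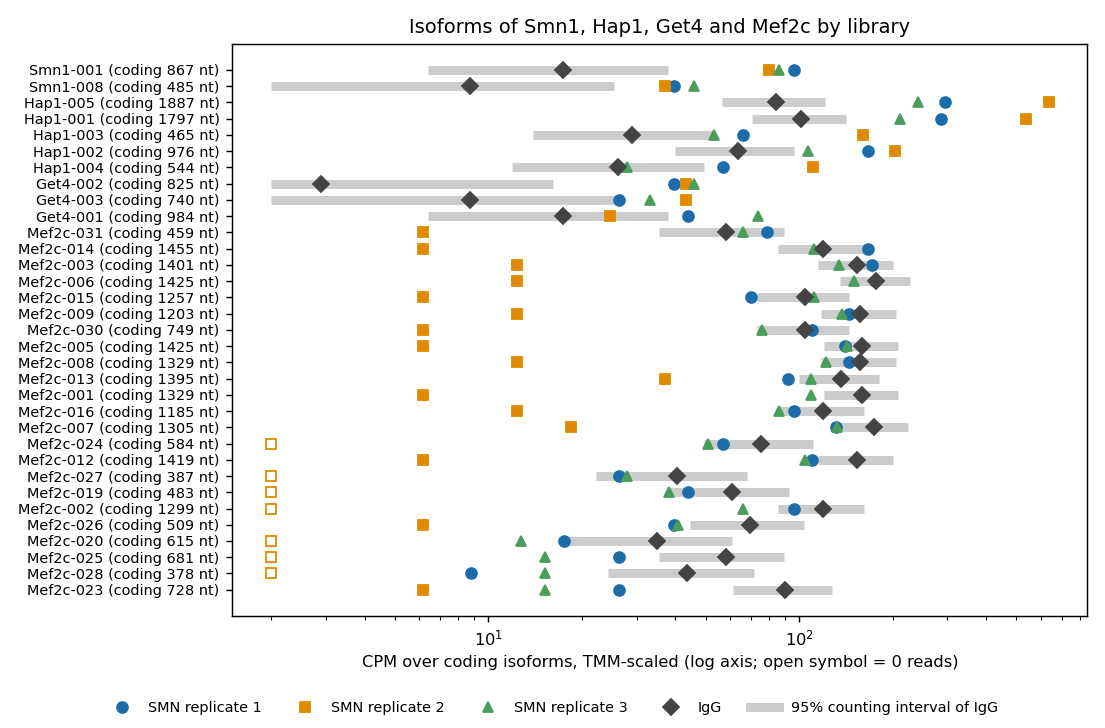
CPM over coding isoforms (log axis) by library for tested isoforms of Smn1, Hap1, Get4 and Mef2c, with the IgG counting interval in grey (cut at the left edge) and open symbols for 0 reads. Smn1 and Get4 isoforms lie above IgG in all 3 SMN libraries, and Mef2c isoforms differ in how far replicates 1 and 3 lie from IgG.

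Among genes not yet named, the isoform with the smallest p above IgG was Get4-002, of a factor that guides tail-anchored proteins to the endoplasmic reticulum. It had 39.5, 43.2 and 45.7 CPM against 2.90 in IgG, from 1 read, and its ratio is open to that count, with an IgG interval of 0.073 to 16.2 CPM. The longer Get4-001, used as the row of the gene, had 43.9, 24.7 and 73.7 CPM against 17.4. The other 4 isoforms were Baiap3-005, Alk-201 and both Zic1 transcripts, Zic1-001 and Zic1-002. Alk, a receptor tyrosine kinase of developing neurons, had 26.3, 98.7 and 27.9 CPM against 5.80.

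On the lower side, 1 isoform of Mef2c, a transcription factor of cortical neurons, lay farther below IgG than the row of the gene. This isoform, Mef2c-023, was picked for its small p and rests on 6, 1 and 6 SMN reads against 31 in IgG. Whether isoforms of Mef2c differ from each other was not tested. The row of the gene, Mef2c-006, had 176, 12.3 and 150 CPM over coding isoforms against 177 in IgG, so SMN replicates 1 and 3 were near IgG. Mef2c-023, a row with 728 nucleotides of coding sequence and no 3′ UTR in the table, had 26.3, 6.17 and 15.2 CPM over coding isoforms against 89.9 in IgG (counting interval 61.1 to 127.6). With all SMN libraries it was not called, and it was the lowest of the tested Mef2c isoforms, whose log2 fold changes ran from -2.41 to -0.096. Without SMN replicate 2 the log2 fold change of Mef2c-023 was -2.18, while that of Mef2c-006 was -0.14. Mef2c-025, a shorter row, had 26.3, 0 and 15.2 CPM against 58.0. The remaining 3 isoforms with the smallest p on this side were Map4k5-003, Ptprd-018 and Luc7l3-001, with log2 fold changes of -1.93, -1.20 and -1.63. No isoform of the 30 named genes had a sign that differed from that of the row used for its gene. Of all 2398 genes with 2 or more tested isoforms, 762 held isoforms of both signs. The named genes were chosen with all 3 SMN libraries on 1 side of IgG, and their isoforms may share reads. Their like signs were thus largely set in advance.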

How the data were processed

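Values were the authors' deposited counts, whole numbers of reads for each Ensembl transcript, next to columns of lengths in nucleotides. The submitters' processing notes name GRCm38.p4, SAMtools, Bowtie2 2.2.6 and Trimmomatic 0.36. The sources used here do not give the rule for reads on several transcripts. Counts were fitted on the 4 immunoprecipitates with edgeR 4.0.16 in R 4.3.3 (robust quasi-likelihood test, two-sided, TMM, filterByExpr with minimum count 10), and called at a Benjamini-Hochberg adjusted p under 0.05. With 1 IgG library, its spread was taken to equal that among SMN libraries. Standard errors are the size of the log2 fold change over the square root of F. IgG intervals are exact 95% Poisson intervals of the counts and, like the floor of 3 counts, cover counting error only. A prior count of 2 went into the log2 ratio of each library. Alternatives used DESeq2 1.42.0, limma 3.58.1 and other filters, rows and libraries. The fit was tested on simulated data.

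The members and the 46 gene lists were chosen with earlier results of these data known. Named were Smn1, the 15 genes above and 15 below IgG in all 3 SMN libraries with the smallest p (mean log2 CPM of 5 or more, predicted genes only where called), up to 3 members of a list with the smallest p, and 5 isoforms in each direction. Ahi1, Avp, H1f0, H1fx, Npy, Copg2, Nefl, Apoe, Agrn, Uba1, Ache, Syp, mt-Nd6, Get4-001 and Mef2c-006 were chosen after their values were seen. Some genes that meet the rule are not reported here. The levels of lists that the text does not give are in the plot of summed levels.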

Additional observations from a re-analysis of the deposited data

How the results depend on the processing

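With 1 SMN replicate left out, 0 to 2 genes were called higher and 0 to 3 lower, and 0 to 3 isoforms higher and 0 to 11 lower; the upper ends came without SMN replicate 2. Genes called lower numbered 0 with DESeq2, with a minimum count of 50 and with counts summed per gene, and 2 with all 8 libraries in 1 fit. Limma-voom called 4 isoforms lower. By the IgG counting interval, 113 genes lay above and 179 below, a rule added after the data were seen. Smn1 had log2 fold changes of 2.04 to 2.34 with a replicate left out and passed the test only without SMN replicate 2 (edgeR, adjusted p = 0.0224). It was not tested with a minimum count of 50. Over 297 results for the other named genes under the alternatives, 288 kept their direction and side of the threshold and 0 changed direction. A further 4 passed in addition and 5 lost the call, all of these 5 for Gm21887. The genes were named for having all 3 SMN libraries on 1 side of IgG, so their direction could hardly change. Most of those that kept their side were uncalled throughout, so these counts do not measure how firm the differences are. Of 489 list medians under the alternatives, 418 moved by less than the spread between SMN libraries. That spread includes replicate 2, so a list in which replicate 2 stands apart is counted as unmoved more easily. Linker histones, for example, count as unmoved although their median went from 1.44 to 0.70 without replicate 2. The 418 is therefore no measure of how firm the medians are. The cause of these changes was not tested. No paired analysis was possible because the SMN and IgG groups share only replicate number 1. A 3-read floor equals 14.4 to 26.0 CPM, so differences of genes near that level were not detectable at this depth.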

Other observations

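Further lists are given here as summed levels of all members in the table, in the order SMN replicate 1, 2 and 3 and then IgG. Proteasome and ubiquitin genes (40 genes) had 14945, 11092 and 15544 CPM against 13352, and glycolytic enzymes (17 genes) had 8272, 5719 and 7498 CPM against 6673. In both, SMN replicates 1 and 3 lay above the IgG counting interval and replicate 2 below it. Chromatin regulators (43 genes) had 8389.5, 6714 and 7714 CPM against 8505, and hnRNPs and neuronal RNA-binding proteins (45 genes) had 8649, 8202 and 8622 CPM against 8934. Immediate early genes (20 genes) had 494, 709 and 609.7 CPM against 385, above the IgG interval in all 3 libraries, although none of the 6 tested members had passed the filter through both groups. The 4 metallothionein genes had 201, 519 and 182 CPM against 220.1.

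Over all transcript classes of the table, protein-coding transcripts took 66.5%, 66.9% and 65.6% of the reads in the SMN libraries and 63.5% in IgG. Small nuclear RNAs, on which the SMN complex works, took 4.85%, 6.71% and 5.39% against 6.66%, and small nucleolar RNAs 1.57%, 2.26% and 2.08% against 2.58%. Long intergenic RNAs took 0.43%, 0.62% and 0.48% against 0.88%, so all 3 SMN libraries lay below IgG for that class. Retained introns were at 9.54%, 7.94% and 9.71% against 9.70%. These shares were not tested.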
